A study of Mus musculus with 7 samples.

Results

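Interferon-stimulated genes are switched on when a cell senses interferon or foreign nucleic acid, and they carry out much of the antiviral state. The 8 genes described here, Isg15, Ifit1, Ifit2, Ifit3, Irf7, Oasl2, Usp18 and Stat2, were chosen by gene symbol as a core set of that response. All 8 were found in the deposited tables and all 8 passed the filter on low counts, out of 44818 features in all and 16028 tested. Sequencing measured their RNA in 7 hindlimb tendon libraries from C57BL/6 background mice. The study concerned the kinase TAK1 and heterotopic ossification, in which injured soft tissue forms cartilage and bone.

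The tenotomy group (2 libraries) came from the injured left leg of mice that had received a partial-thickness scald burn on the back, made in 18 s by aluminium heated to 60 °C and covering 30% of the surface, together with a cut through the Achilles tendon. This tissue was taken 3 weeks after the injury, between the insertion into the gastrocnemius muscle and the heel bone. The contralateral group (3 libraries) was the uncut right-leg tendon of mice with the same burn and tenotomy, so these controls carry the systemic injury. The uninjured group (2 libraries) came from wild-type mice with neither burn nor tenotomy. No group is labelled with a deletion of TAK1, and the labels used here give no age and tie no 2 libraries to the same mouse. The labels do not say that libraries of a group came from separate animals, so p-values measure the spread between these libraries, which may be technical.

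Library totals ranged from 25927171 to 36725106 estimated counts, but the 5 most abundant features took 76.41% to 81.4% of each, which left 4934057 to 8375626 counts for everything else. The tissue held muscle as well as tendon. The 22 skeletal muscle markers summed to between 25800 and 28620 CPM (counts scaled to a common library size and composition) in the contralateral libraries, 2257 and 2272 in the tenotomy libraries, and 2878 and 19330 in uninjured replicates 1 and 2. The 14 tendon fibroblast markers, all of them detected, summed to 1223 to 1634 CPM in the contralateral libraries and 7216 and 7221 CPM in the tenotomy libraries. In uninjured replicates 1 and 2 they summed to 6585 and 4558 CPM. Uninjured replicate 1 stood apart from its label's other library. Its muscle marker sum and its macrophage marker sum (176.5 CPM, against 51.77 in uninjured replicate 2) lay near those of the tenotomy libraries. Its cartilage marker sum (131.3 CPM) lay between those of uninjured replicate 2 (48.39 CPM) and the tenotomy libraries (321.4 and 324.9 CPM). Results that involve the uninjured group are therefore given with and without uninjured replicate 1.

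Type I interferons bind the receptor formed by IFNAR1 and IFNAR2, which activates the kinases TYK2 and JAK1. These phosphorylate STAT2, which joins IRF9 in the complex ISGF3, the factor that binds interferon-stimulated response elements (ISREs) in the promoters of its targets. Among the members, Stat2 encodes a subunit of ISGF3 itself, and Irf7 encodes the transcription factor that amplifies the transcription of type I interferon genes. Ifit1, Ifit2 and Ifit3 encode tetratricopeptide-repeat proteins, of which IFIT1 binds foreign RNA ends, and Oasl2 encodes a protein of the 2'-5'-oligoadenylate synthetase family. Isg15 encodes a ubiquitin-like modifier, and Usp18 the protease that removes it and that also restrains IFNAR2 signalling.

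The members lie on 6 chromosomes of the GRCm38 mouse genome. Ifit2 (chr19:34550694-34576419), Ifit3 (chr19:34583531-34588731) and Ifit1 (chr19:34640871-34650009), all on the plus strand, lie in a gene cluster on chromosome 19. The others are Isg15 (chr4:156199424-156200818, minus strand), Oasl2 (chr5:114896936-114912234, plus), Usp18 (chr6:121245906-121270917, plus), Irf7 (chr7:141262706-141266481, minus) and Stat2 (chr10:128270559-128292849, plus). These positions span the whole annotated gene, introns included.

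The promoter letters that ISGF3 is known to read are shown for the members that hold them. RefSeq promoter windows of 300 bases (GRCm38.p6, 250 bases before the start of the gene and 50 after it) were matched for 7 of the 8 members (all but Usp18). Both strands were searched for the ISRE core GAAANNGAA, which reads TTCNNTTTC on the opposite strand. It occurred in 4 of the 7 members (57.1%), against 9.76% of 27025 genes with a window and 8.56% of all 32851 windows of the same length. The stretches run 5′ to 3′ on the gene's own strand, with the matching letters in capitals and 15 bases on either side: chr4:156200861-156200911 (minus strand) for Isg15, chr19:34640765-34640828 for Ifit1, chr19:34583359-34583450 for Ifit3 and chr10:128270262-128270300 for Stat2.
Isg15: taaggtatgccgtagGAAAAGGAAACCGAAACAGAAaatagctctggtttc
Ifit1: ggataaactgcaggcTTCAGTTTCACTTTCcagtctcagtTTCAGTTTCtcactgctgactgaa
Ifit3: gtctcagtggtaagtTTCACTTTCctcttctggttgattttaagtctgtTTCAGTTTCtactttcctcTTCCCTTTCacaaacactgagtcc
Stat2: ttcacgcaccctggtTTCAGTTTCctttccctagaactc

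Isg15, Ifit1 and Ifit3 each held 3 matches and Stat2 held 1. The 3 matches of Isg15 overlapped one another and lay between 78 and 58 bases before the start, and 2 of the 3 of Ifit1 overlapped. All matches of Ifit1, Ifit3 and Stat2 were on the strand opposite to the gene, so with only the gene's own strand searched the count of members was 1 (Isg15). The gamma-activated site TTCNNNGAA, known from interferon-gamma responses, occurred in 1 of the 7 members (Ifit2, 14.3%). Across all genes with a window the share was 9.55%, and across all windows 8.3%. This site occurred in 9 of 21 interferon-gamma-induced genes (42.9%) and in 8 of 44 other interferon-stimulated effectors (18.2%). The ISRE core was about as common in other interferon-stimulated effectors (28 of 44, 63.6%) and interferon-gamma-induced genes (13 of 21, 61.9%) as in the members. It was found in 2 of 15 macrophage markers with a window. A match is only a run of letters, and no binding was measured here.

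The members were weakly expressed in every library. Summed over the 8 genes, TPM (transcript abundances scaled for length and library) came to 0.6803, 0.6578 and 0.462 in the contralateral libraries, 0.9033 and 0.944 in the tenotomy libraries, and 1.357 and 0.6721 in the uninjured libraries. The mean TPM over the 7 libraries ran from Ifit3 (0.15) through Oasl2 (0.124), Ifit2 (0.114), Stat2 (0.11), Isg15 (0.101), Irf7 (0.0963) and Ifit1 (0.0624) to Usp18 (0.0541). Every pair of neighbours in that order overlapped in its range over libraries, and the order was not the same in each group. In the contralateral mean Oasl2 (0.0775) came after Stat2, Isg15, Irf7 and Ifit2 (0.0785 to 0.0797), and in uninjured replicate 2 Ifit2 was the highest, with 24.23% of the members' summed TPM. Ifit3 spanned 0.0825 to 0.253 TPM and Usp18 0.0375 to 0.0693. Estimated counts ran from 7 for Isg15 in contralateral replicate 3 (95% Poisson interval 2.81 to 14.4, counting error only) to 141 for Stat2 in tenotomy replicate 1 (119 to 166), so the interval is widest, relative to the count, for the lowest counts.

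**Figure D1:**
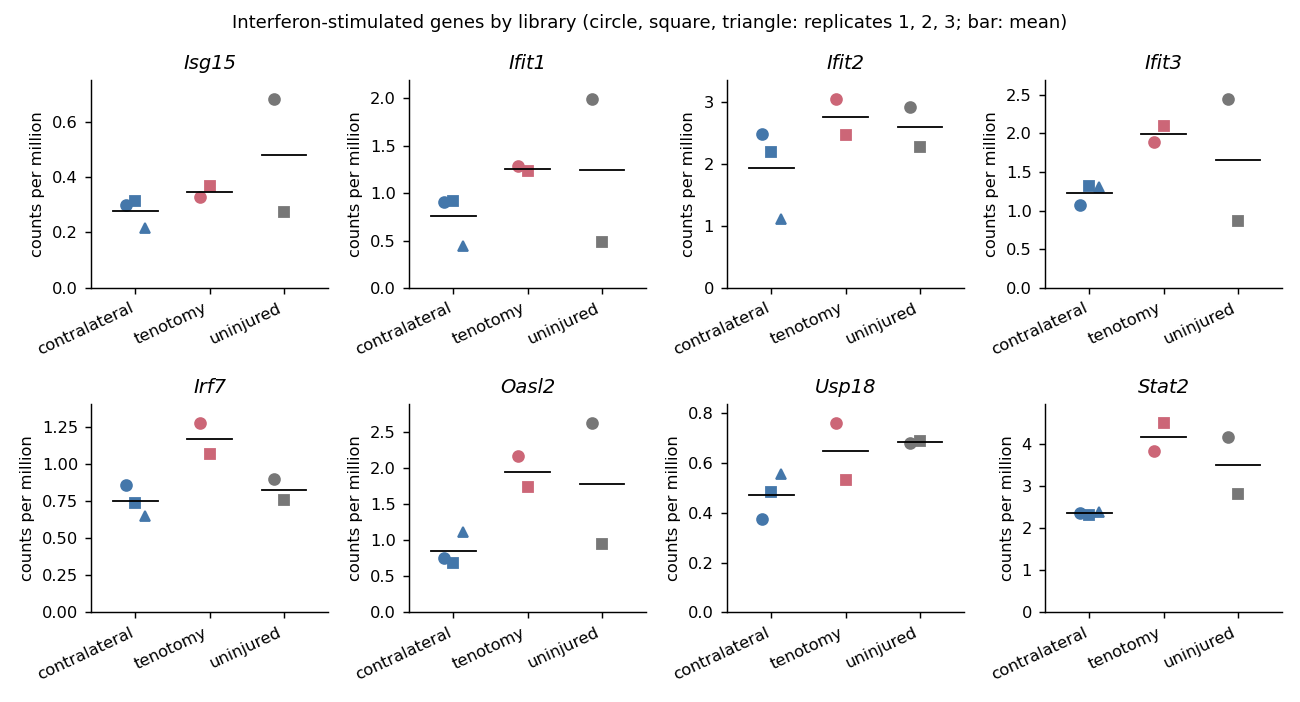
CPM of each member in each library on a linear axis from 0, with points for the 3 contralateral, 2 tenotomy and 2 uninjured libraries and a bar at each group mean. Stat2 reads 2.31 to 2.38 in the contralateral libraries and 3.84 and 4.5 in the tenotomy libraries, and uninjured replicate 1 (grey circle) lies above the tenotomy points for Isg15, Ifit1, Ifit3 and Oasl2.

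The comparison of the tenotomy site with the contralateral tendon sets cut against uncut tissue in animals with the same burn. The groups also differed in tissue makeup, with muscle marker sums of 2257 and 2272 CPM against 25800 to 28620 CPM. In a change between them, the cut and the tissue makeup cannot be told apart here. Of the 8 members, Stat2 alone rose at the tenotomy site at an adjusted p under 0.05. All 8 had a log2 fold change above 0, between 0.32 and 1.20, with a median of 0.67 against -0.0012 over all features tested. By edgeR's quasi-likelihood test, 13.6% of all features tested were called higher and 15.4% lower, so 1 of 8 is near that background. In 6 of the 8, every tenotomy library lay above every contralateral library, against 31.8% of all features (and 31.8% in the lower direction). At an unadjusted p under 0.05 in edgeR's test there were 3 members, all higher: Stat2, Oasl2 and Irf7. So were 6938 of the 16028 features tested, 3366 of them higher.

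Stat2 had the smallest spread among the contralateral libraries. It read 2.36, 2.31 and 2.38 CPM in contralateral replicates 1 to 3 and 3.84 and 4.5 CPM in tenotomy replicates 1 and 2. The contralateral libraries lay close together and both tenotomy libraries were above all of them. The mean was 2.35 ± 0.0395 CPM (SD, n = 3) in the contralateral and 4.17 ± 0.47 CPM (SD, n = 2) in the tenotomy group. That is a log2 fold change of 0.82 ± 0.19 (SE), or 1.77-fold, with an edgeR adjusted p of 0.0203. The call was lost without any single contralateral or tenotomy library, where the adjusted p ranged from 0.0592 to 0.142, but in those smaller fits no feature at all was called.

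The transcription factor gene Irf7 and Oasl2 were the next in order of p. Oasl2 read 0.752, 0.687 and 1.12 CPM in the contralateral libraries and 2.16 and 1.73 CPM in the tenotomy libraries. It had the largest log2 fold change of the 8, 1.20 ± 0.42 (SE), at an edgeR adjusted p of 0.0671. Irf7 read 0.862, 0.74 and 0.649 CPM against 1.28 and 1.07 CPM, a log2 fold change of 0.65 ± 0.23 (SE) at an edgeR adjusted p of 0.0655. Neither gene's groups overlapped, and neither passed the threshold. Both passed without uninjured replicate 1 (edgeR adjusted p 0.00138 for Oasl2 and 0.0406 for Irf7) and without uninjured replicate 2 (0.00123 and 0.0409), as did Ifit3 (0.00979 and 0.00897). Either fit called 4 of 8 members higher, but also 20.95% (without replicate 1) and 21.16% (without replicate 2) of all features, and the number of features tested was 17018 and 16877. The log2 fold changes of Oasl2 (1.21 in either case) and Irf7 (0.66 in either case) barely moved. The SE of Irf7 was no smaller there (0.24 in either case).

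The neighbouring Ifit genes on chromosome 19 differed in how well their groups separated. Ifit3 read 1.08, 1.32 and 1.31 CPM in the contralateral libraries and 1.89 and 2.09 CPM in the tenotomy libraries, a log2 fold change of 0.68 ± 0.37 (SE). Ifit1 read 0.906, 0.919 and 0.442 CPM against 1.29 and 1.23 CPM, a log2 fold change of 0.75 ± 0.55 (SE). Ifit2 read 2.47, 2.19 and 1.11 CPM against 3.05 and 2.47 CPM, a log2 fold change of 0.53 ± 0.31 (SE). The groups of Ifit1 and Ifit3 did not overlap, whereas the lower tenotomy value of Ifit2 fell just under the highest contralateral value. Contralateral replicate 3 was the lowest library for Ifit1 and Ifit2 but not for Ifit3, and without it the log2 fold changes of Ifit1 and Ifit2 were 0.47 and 0.25. Their edgeR adjusted p-values were 0.203 (Ifit3), 0.335 (Ifit1) and 0.239 (Ifit2). Ifit3 has a near-identical copy, Ifit3b, so the split of reads between these genes is uncertain. Ifit3b itself read 0.541 ± 0.233 CPM (SD, n = 3) in the contralateral and 0.822 ± 0.032 CPM (SD, n = 2) in the tenotomy group.

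The ISG15 modifier and its protease were the members with the fewest counts. Isg15 read 0.3, 0.313 and 0.217 CPM in the contralateral libraries and 0.326 and 0.367 CPM in the tenotomy libraries, which is 7 to 12 estimated counts a library. Its groups did not overlap, but its log2 fold change of 0.32 ± 0.47 (SE) was smaller than its error, at an edgeR adjusted p of 0.652. Usp18 read 0.375, 0.484 and 0.557 CPM against 0.762 and 0.533 CPM, with overlapping groups, a log2 fold change of 0.45 ± 0.30 (SE) and an edgeR adjusted p of 0.28. Without contralateral replicate 3 the log2 fold change of Isg15 was 0.17, and without tenotomy replicate 1 that of Usp18 was 0.16.

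The sample titles fall in 3 runs of numbers, which no label calls a batch: the contralateral libraries and tenotomy replicate 1 share one, tenotomy replicate 2 and uninjured replicate 1 share another, and uninjured replicate 2 is alone. Within the run that holds the contralateral libraries, the log2 ratio of tenotomy replicate 1 to their mean was above 0 for all 8 members, from 0.24 (Isg15) to 1.35 (Oasl2), with 0.71 for Stat2. Tenotomy replicate 2, from the other run, gave 0.18 (Usp18) to 1.02 (Oasl2), with 0.94 for Stat2. A fit with the run as a covariate estimates the difference within runs. Only the first run holds both groups, so this comparison rested there on tenotomy replicate 1 alone. It gave log2 fold changes of 0.71 for Stat2 and 1.35 for Oasl2, which repeat that library's ratios and add no replication.

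**Figure D2:**
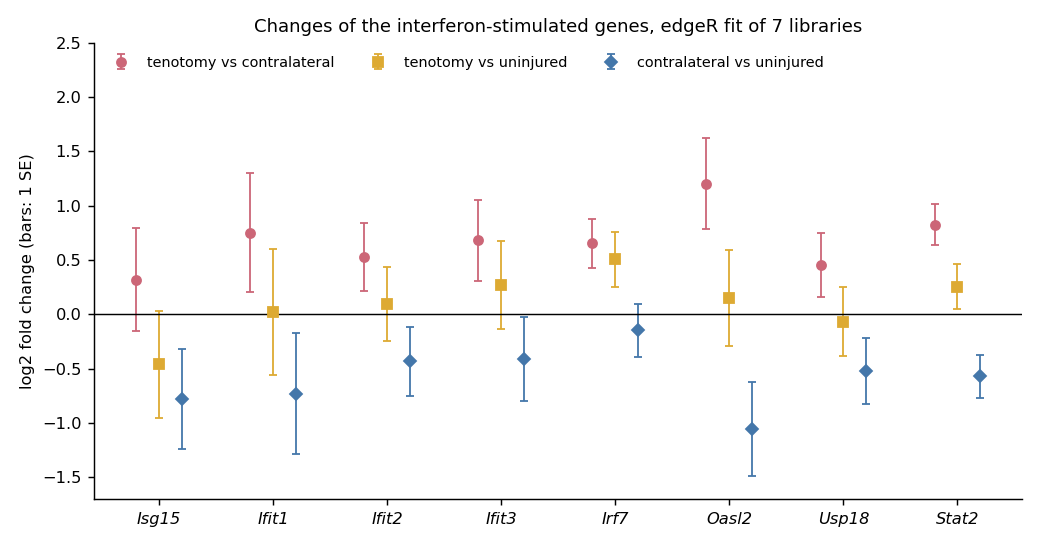
Log2 fold change of each member in the 3 comparisons, from the edgeR fit of all 7 libraries, with bars of 1 SE. The tenotomy against contralateral values (circles) all lie above 0, the contralateral against uninjured values (diamonds) all lie below 0, and the tenotomy against uninjured values (squares) lie between -0.46 and 0.51.

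Against uninjured mice, the tenotomy site showed no called member. DESeq2 called 5 features higher and 135 lower but gave no member an adjusted p, so none could be called there. By edgeR's test 0.0% of all features were called higher and 0.0% lower in this comparison, where 1741 features had an unadjusted p under 0.05. None of the 8 members had an unadjusted p under 0.05. Their median log2 fold change was 0.12, against -0.0147 over all features tested. Only Irf7 read higher in every tenotomy library (1.28 and 1.07 CPM) than in every uninjured library (0.898 and 0.757 CPM), with a log2 fold change of 0.51 ± 0.25 (SE) and an edgeR adjusted p of 0.485. That value was 1.26 with protein-coding transcripts only and 0.11 with length-scaled TPM, and passed in neither. That is 1 of 8, against 20.0% of all features in this direction and 20.5% in the other.

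The 2 uninjured libraries differed widely from each other for most members. Ifit1 read 2 CPM in uninjured replicate 1 and 0.488 CPM in replicate 2, values that lie above and below both tenotomy libraries. Oasl2 read 2.62 and 0.94 CPM, Ifit3 2.45 and 0.867 CPM, and Isg15 0.683 and 0.275 CPM, in the same order. Stat2 read 4.17 and 2.82 CPM. Usp18 was the exception, at 0.683 and 0.688 CPM, and Ifit2 (2.91 and 2.27 CPM) and Irf7 differed less than the others.

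Without uninjured replicate 1, 4 members were called higher at the tenotomy site than in the single uninjured library left. These were Ifit1 (log2 fold change 1.38, edgeR adjusted p 0.0447), Ifit3 (1.20, 0.00731), Oasl2 (1.08, 0.0335) and Stat2 (0.56, 0.0494). That fit called 11.38% of all features higher, and it assumes that the lone uninjured library varies like the other groups. Without uninjured replicate 2 instead, the log2 fold changes of Ifit1 (-0.67), Ifit2 (-0.07), Ifit3 (-0.30), Oasl2 (-0.41) and Stat2 (-0.0033) fell below 0 and 0 members were called. The direction of these members against uninjured tendon thus depended on which uninjured library was used. Within the number run they share, tenotomy replicate 2 was below uninjured replicate 1 for 6 of the 8 members, by log2 ratios down to -0.90 (Isg15), and above it for Irf7 (0.25) and Stat2 (0.11).

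The contralateral tendon of injured mice, compared with tendon of uninjured mice, had a log2 fold change below 0 for all 8 members, from -0.15 (Irf7) to -1.06 (Oasl2), with a median of -0.55 against -0.0121 over all features tested. None was called by edgeR's test, as was true of all features (0.0% higher and 0.0% lower). At an unadjusted p under 0.05 in that test there were 2 members, Stat2 and Oasl2, and 3084 of 16028 features. DESeq2 called 82 features higher and 136 lower but gave no member an adjusted p, so none could be called there. In 2 of the 8, Stat2 and Usp18, every contralateral library was below every uninjured library, against 16.6% of all features (18.9% in the other direction). Stat2 had a log2 fold change of -0.57 ± 0.20 (SE) at an edgeR adjusted p of 0.224, and Usp18 -0.52 ± 0.30 (SE) at 0.352. Without uninjured replicate 1 the values of Ifit1 (0.62), Ifit3 (0.52) and Isg15 (0.0036) turned positive. The other members stayed below 0 in that fit, at -0.13 (Oasl2), -0.27 (Stat2), -0.25 (Ifit2), -0.02 (Irf7) and -0.53 (Usp18). Irf7 turned positive (0.76) when only protein-coding transcripts were counted. Without uninjured replicate 2, 4 members were called lower: Ifit1 (-1.43), Ifit3 (-0.98), Oasl2 (-1.62) and Stat2 (-0.83). That fit called 2857 features higher and 2536 lower of 16877 tested. This comparison shares its uninjured libraries with the one before it and its contralateral libraries with the first, so the 3 sets of values are not independent.

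The interferon ligands themselves were hardly represented. Of 21 ligand genes, 0 passed the filter on low counts and 18 had 0 estimated counts in every library, among them Ifnb1, Ifng, the lambda interferons Ifnl2 and Ifnl3, and all but one of the listed alpha interferons. A count of 0 allows up to 3 counts a library, or 0.0816 to 0.112 CPM. The others, Ifna16, Ifnk and Ifnz, reached at most 6 estimated counts in a library. Alpha interferon genes are near-identical copies, so the assignment of their few reads is uncertain.

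Among the receptor genes, 2 of the 5 that passed the filter rose at the tenotomy site, against 13.6% of all features tested. Ifnar1, which encodes a chain of the type I receptor, read 4.44, 4.44 and 5.06 CPM in the contralateral libraries and 8.67 and 8.69 CPM in the tenotomy libraries, a log2 fold change of 0.90 ± 0.22 (SE) at an edgeR adjusted p of 0.0217. Il10rb, a chain of the lambda interferon receptor that also serves interleukin-10, had 0.73 ± 0.21 (SE) at 0.0398. Ifnar2, the partner of Ifnar1, read 1.94 ± 0.188 CPM (SD, n = 3) and 2.94 ± 0.003 CPM (SD, n = 2), with an edgeR adjusted p of 0.0789. The interferon-gamma receptor genes had log2 fold changes of -0.12 ± 0.15 (SE) for Ifngr1 and -0.02 ± 0.15 (SE) for Ifngr2. Ifnlr1 was removed by the filter, at 0.158 CPM in the contralateral mean. Ifnar1 read 8.99 CPM in uninjured replicate 1 and 5.37 CPM in replicate 2, a split like that of Stat2 and Oasl2.

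Of the 6 listed receptor kinase and ISGF3 genes, Tyk2 and Stat2 rose, against 13.6% of all features tested. Tyk2, the kinase bound to IFNAR1, read 2.02, 2.25 and 2.04 CPM in the contralateral libraries and 3.45 and 3.43 CPM in the tenotomy libraries, a log2 fold change of 0.71 ± 0.14 (SE) at an edgeR adjusted p of 0.0167. Both uninjured libraries lay between those groups, at 2.98 and 2.99 CPM. The ISGF3 subunit gene Irf9 had a log2 fold change of 0.65 ± 0.26 (SE) at an edgeR adjusted p of 0.0942 and did not pass. The kinase genes Jak1 (-0.13 ± 0.18, SE) and Jak2 (-0.44 ± 0.17, SE) had values below 0 and did not pass either.

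In the ISG15 conjugation pathway, 1 of 6 genes rose, which is near the 13.6% of all features tested that were called higher. The 6 include the members Isg15 and Usp18. The gene that rose was Ube2l6, the conjugating enzyme that passes ISG15 on. It read 1.1 ± 0.0789 CPM (SD, n = 3) in the contralateral and 1.83 ± 0.02 CPM (SD, n = 2) in the tenotomy group. Its log2 fold change was 0.72 ± 0.18 (SE) at an edgeR adjusted p of 0.0231. The activating enzyme gene Uba7 had 0.42 ± 0.24 (SE), the ligase gene Herc6 -0.03 ± 0.19 (SE) and Trim25, which encodes a ubiquitin ligase, 0.25 ± 0.17 (SE), and none of these passed.

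**Figure D3:**
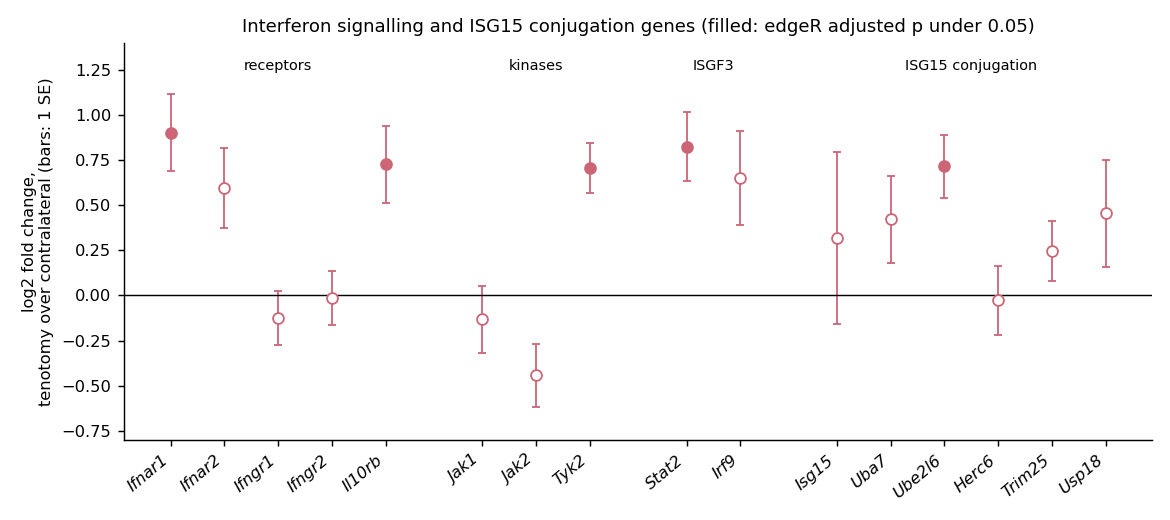
Log2 fold change, tenotomy over contralateral, of 16 receptor, kinase, ISGF3 and ISG15 conjugation genes that passed the filter, with bars of 1 SE and filled points for an edgeR adjusted p under 0.05. Filled points are Ifnar1, Il10rb, Tyk2, Stat2 and Ube2l6, at 0.71 to 0.90, while Ifngr1, Ifngr2, Jak1, Jak2 and Herc6 lie below 0.

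The wider set of interferon-stimulated effectors moved in part. Of 48 tested (56 listed), 10 rose and 1 fell, with a median log2 fold change of 0.49. The log2 fold change was above 0 in 41 and below 0 in 7. In 34 (70.83%), every tenotomy library lay above every contralateral library, against 31.8% of all features. The reverse held in 1, also against 31.8%. The best expressed genes with large values were Ifitm2 (log2 fold change 1.12 ± 0.26, SE, edgeR adjusted p 0.0207) and Ifitm3 (0.61 ± 0.18, SE, 0.0385), which encode membrane proteins that block virus entry, Ifi207 (0.81 ± 0.26, SE, 0.0491), a member of the interferon-inducible p200 family, and Samhd1 (0.51 ± 0.25, SE, 0.164), a dNTP hydrolase that did not pass. Others, chosen after their values were seen, were the tetherin gene Bst2 (1.01) and Lgals3bp (1.08), which rose, and Ifi27l2a, which fell by 1.44 on the log2 scale. The antiviral genes Mx1 (1.20 ± 0.45, SE) and Rsad2 (-0.07 ± 0.24, SE), also chosen afterwards, did not pass. The 10 of 48 compares with 13.6% of all features tested, and the 1 of 48 with 15.4%.

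Genes typical of interferon-gamma gave no common direction. Of 27 tested (30 listed), 4 rose (Socs1, Irf8, Ciita and Tapbp) and 1 fell (Gbp4), and the median log2 fold change was -0.02. Of all features tested, 13.6% were called higher and 15.4% lower, so 4 of 27 is near that background. Tapbp, which encodes the peptide-loading factor tapasin, read 6.14 ± 0.485 CPM (SD, n = 3) and 9.88 ± 0.643 CPM (SD, n = 2). It rose by 0.69 on the log2 scale (SE of 0.17, with an edgeR adjusted p of 0.023). The guanylate-binding protein gene Gbp7 had -0.17 ± 0.17 (SE). Irf8, chosen after its values were seen, was the only one of 9 interferon regulatory factor genes that rose (1.86 ± 0.47, SE, edgeR adjusted p 0.0249), and it is a lineage factor of monocytes and dendritic cells.

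Of 20 nucleic acid sensors and adaptors, 7 rose and 1 fell, against 13.6% and 15.4% of all features tested. The one that fell was Mavs, the mitochondrial adaptor of the RIG-I pathway, at 6.75, 6.83 and 6.83 CPM in the contralateral libraries and 2.07 and 2.1 CPM in the tenotomy libraries. Its log2 fold change was -1.71 ± 0.34 (SE) at an edgeR adjusted p of 0.0167, and it read 2.52 CPM in uninjured replicate 1 and 6.23 CPM in replicate 2. The 7 that rose, named after their values were seen, were Tlr8 (2.24), Tlr9 (1.99), Tmem173, which encodes STING (1.62), Tlr7 (1.5), Myd88 (1.27), Ikbke (1.17) and Ddx58, which encodes RIG-I (0.81). Tlr7, Tlr8 and Tlr9 encode endosomal receptors that macrophages and dendritic cells carry.

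The negative regulators divided. Of 13, 4 rose (Socs3, Socs1, Ptpn6 and Pias3, named after their values were seen) and 1 fell. Of all features tested, 13.6% were called higher and 15.4% lower. Ptpn11, which encodes the phosphatase SHP2, fell (log2 fold change -0.92 ± 0.19, SE, edgeR adjusted p 0.0167), while the STAT inhibitor genes Pias2 (-0.43 ± 0.15, SE) and Pias1 (-0.15 ± 0.16, SE) did not pass. Socs3 had the largest value, 3.10 ± 0.47 (SE) at an edgeR adjusted p of 0.0167. Usp18 and Isg15, counted in this list as well, did not pass.

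Markers of immune cells had the same high and low libraries as the members, but so did a list of another kind. The 7 proliferation markers summed to 3.37 to 3.64 CPM in the contralateral libraries and 15.85 and 14.56 CPM in the tenotomy libraries. In uninjured replicates 1 and 2 they summed to 12.56 and 3.01 CPM. Adipocyte markers ran in reverse, at 181.1 to 240.7, then 87.97 and 88.29, then 87.8 and 246.1 CPM. So did skeletal muscle markers, at 25800 to 28620, then 2257 and 2272, then 2878 and 19330 CPM. The part of tissue makeup in the members' values was not tested. The 21 macrophage and monocyte markers summed to 42.08, 49.68 and 40.98 CPM in the contralateral libraries, 174.3 and 177.9 CPM in the tenotomy libraries, and 176.5 and 51.77 CPM in the uninjured libraries. Of the 20 macrophage and monocyte markers that passed the filter, 17 rose at the tenotomy site, against 13.6% of all features tested. Marco was at 0 in every library. The members' own sum was 9.1, 8.96 and 7.78 CPM in the contralateral libraries, 14.58 and 13.98 CPM in the tenotomy libraries, and 16.41 and 9.11 CPM in the uninjured libraries. So the members' tenotomy mean was 1.66 times the contralateral mean and that of the macrophage markers was 3.98 times. These are whole-tissue libraries, in which more cells of a type and more RNA per cell cannot be told apart, and the part of macrophages in the members' values was not tested.

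Other immune lists had the same high and low libraries at lower levels. The calls given for them compare with 13.6% of all features called higher. The conventional dendritic cell markers summed to 4.52 to 6.31 CPM in the contralateral libraries, 10.1 and 10.17 CPM in the tenotomy libraries, and 9.77 and 5.5 CPM in the uninjured libraries, with Itgax and Cd209a, named for passing the test, called higher among 6 tested. The T, NK and B cell markers summed to 1.56 to 2.22, then 4.15 and 4.62, then 6.92 and 2.74 CPM, with Cd4, named likewise, called higher among 4 tested. Among the plasmacytoid dendritic cell markers, a cell type known for interferon release, Siglech read 0.511 ± 0.106 CPM (SD, n = 3) in the contralateral and 0.748 ± 0.142 CPM (SD, n = 2) in the tenotomy group, with an edgeR adjusted p of 0.232. Of the 7 tested in that list, Runx2 and Bst2 were called higher and Cox6a2 lower, each named for passing the test. Of all features, 15.4% were called lower. The sum of that list is not read here because it includes Cox6a2, which muscle also expresses. The parts of these cells in the members' values were not tested either.

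**Figure D4:**
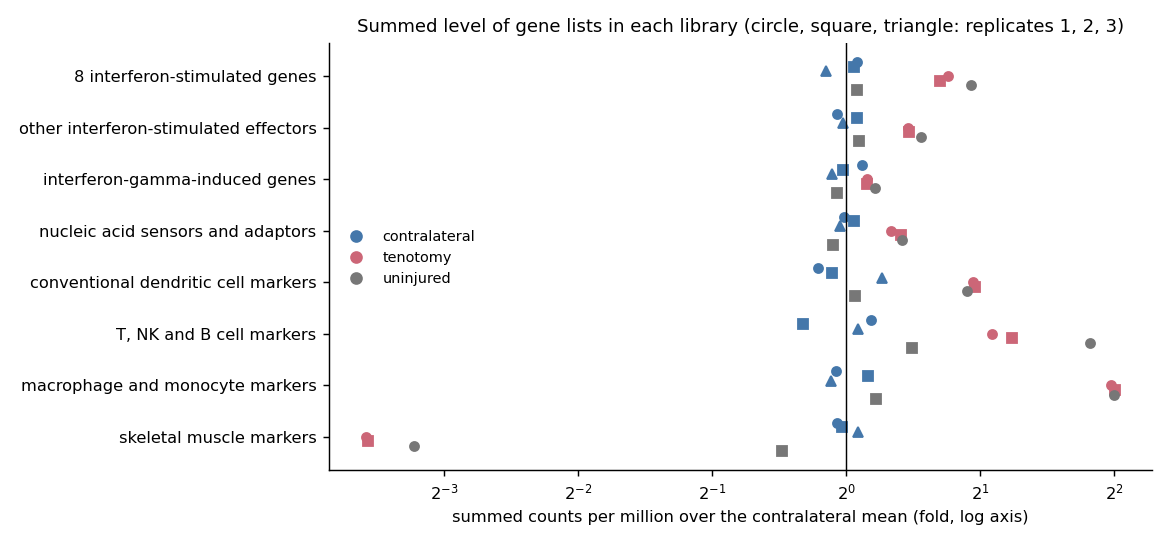
Summed CPM of gene lists in each library, divided by the mean of the 3 contralateral libraries, on a log axis. The 8 interferon-stimulated genes lie at 1.69 and 1.62 in the tenotomy libraries and 1.91 and 1.06 in the uninjured ones, the macrophage and monocyte markers at 3.94, 4.02, 3.99 and 1.17, and the skeletal muscle markers at 0.0837, 0.0843, 0.107 and 0.717.

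The members differed in their distance from their mean pattern over the 7 libraries. After each gene's log2 CPM was centred on its own mean, Stat2 lay nearest to that pattern (root mean square distance 0.157 on the log2 scale). Oasl2 (0.371) and Ifit1 (0.37) lay farthest from it. The distance mixes the size of a swing with its shape. Oasl2 and Ifit1 were both higher in uninjured replicate 1 and both tenotomy libraries than in the other 4, like the mean. Usp18 was not, at 0.688 CPM in uninjured replicate 2 and 0.533 CPM in tenotomy replicate 2. Of 4242 other genes with a mean log2 CPM of at least 2, the nearest to that mean pattern included Ctsa (distance 0.0763), a lysosomal protease, Fnip2 (0.0794), a partner of folliculin, the interferon-stimulated Samhd1 (0.0809) and the transcription factor gene Elf1 (0.0827). These 4 were higher in uninjured replicate 1 and in both tenotomy libraries than in the other 4 libraries, as was the mean of the members. This ranking describes 7 libraries that share their depth and tissue makeup and carries no test.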

How the data were processed

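Per the file headers, each deposited table gives the estimated count and the TPM of 103639 transcripts beside their lengths. The authors' deposited estimated counts are unnormalised and not whole. The TPM deposited by the authors are scaled by effective length. The submitters' processing notes name FastQC 0.11.4, kallisto and the build GRCh38, a human build, although the transcript IDs are mouse, so the build used is uncertain. Libraries were prepared with a TruSeq RNA kit, per the labels' protocols.

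Transcript IDs were matched without version to GENCODE M21 (GRCm38): 101510 matched, and the 2129 others were kept as single features. Estimated counts were summed per gene and rounded. Summing joins coding and noncoding transcripts. Low features were removed with filterByExpr (minimum count 10) and libraries scaled by TMM, the scaling behind every CPM. The test was edgeR 4.0.16's quasi-likelihood test in R 4.3.3, with all 7 libraries in one fit of 3 group means, and Benjamini-Hochberg adjustment over 16028 features at 0.05. The SE is the absolute log2 fold change divided by the square root of F. Scripts were tested on simulated counts. Replicates were numbered in accession order, which pairs no libraries. Intervals and floors cover counting error only.

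The members, gene lists and naming rule were chosen with earlier results of these data known. The rule named the members, the receptor, kinase, ISGF3 and ISG15 conjugation genes whatever their values, up to 4 genes per other pathway list with a mean log2 CPM of at least 2 and the largest tenotomy to contralateral change, and the 5 genes nearest to the members' mean pattern. Some genes that the rule names are not reported here. Alternatives were DESeq2 1.42.0, limma-voom (limma 3.58.1), other scalings, filters, thresholds and sample sets, length-scaled TPM, protein-coding transcripts only, and leaving out each library.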

Additional observations from a re-analysis of the deposited data

How the results depend on the processing

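Against the contralateral tendon, no member changed sign in any of 156 values under the alternatives. Those of the test against a 1.5-fold change repeat the reported fit's own values and could not change sign, and many others refit the same libraries. Leaving out 1 library moved Isg15, Ifit1, Ifit2 and Usp18 by over 1.5 times. The number of members called higher, 1 in the fit reported, was 2 with upper quartile scaling, with library totals only, without the low count filter and with a covariate for the run of title numbers, 4 with only the groups compared, and 0 at an adjusted p under 0.01 or in a test against a 1.5-fold change. Of all features, 13.59% were called higher in the fit reported, 22.06% with only the groups compared, 4.124% against 1.5-fold, and 0 at an adjusted p under 0.01. The share was 16.43% with upper quartile scaling, 15.63% with library totals, 8.12% without the filter and 16.58% with the covariate. Leaving out one library gave 0 to 4 members and 0 to 21.16% of all features. Library totals alone moved the median of all features by 0.15, and upper quartile scaling by 0.11. The covariate fit rests on single tenotomy or uninjured libraries, so its counts add no replication. Fits that left out 1 uninjured library are described above. Against uninjured tendon, the number-run covariate gave 1 member called lower in the contralateral tendon (Oasl2). That fit called 1122 of 16028 features lower and 1344 higher there. With 1 strand searched, 1 member held the ISRE core.

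Signs changed for the tenotomy site against uninjured tendon as follows. With the number-run covariate the values were -0.70 (Ifit1), -0.24 (Ifit2), -0.22 (Ifit3) and -0.60 (Oasl2). Ifit2 was -0.23 with length-scaled TPM, and Usp18 was 0.060 with library totals. Leaving out 1 library gave ranges of -0.97 to 0.33 (Isg15), -0.67 to 1.38 (Ifit1), -0.0678 to 0.29 (Ifit2), -0.30 to 1.20 (Ifit3), -0.41 to 1.08 (Oasl2), -0.36 to 0.15 (Usp18) and -0.0033 to 0.56 (Stat2). For the contralateral tendon against uninjured tendon, Irf7 was 0.76 with protein-coding transcripts only, and leaving out 1 library gave -1.29 to 0.0036 (Isg15), -1.43 to 0.62 (Ifit1) and -0.98 to 0.52 (Ifit3). In the covariate fit, the tenotomy to uninjured values rest on tenotomy replicate 2 and uninjured replicate 1, which share the only run that holds both groups. Its values above thus compare 1 library with 1 library. The cause of the other sign changes was not tested. No paired analysis was possible because the labels give replicates no number that is shared between groups. Where a fit left 1 library in a group, that library was assumed to vary like the other groups. Isg15 and Usp18 had the fewest counts, and whether depth or the spread between libraries limits them was not tested.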

Other observations

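Irf7 and Oasl2 are the members whose counts were divided among coding and noncoding transcripts. Of the 11 annotated Irf7 transcripts in the tables, 4 are protein-coding, and they took 54.35%, 56.0% and 86.81% of the gene's estimated counts in the contralateral libraries, 46.49% and 71.35% in the tenotomy libraries, and 18.91% and 48.5% in the uninjured libraries. Of the 7 Oasl2 transcripts 4 are protein-coding, with 38.58% to 65.69% of the counts in the contralateral libraries, 44.42% and 91.1% in the tenotomy libraries, and 66.26% and 48.04% in the uninjured libraries. For Oasl2 the ranges of the 3 groups overlapped. For Irf7 the tenotomy range overlapped that of each other group, while both uninjured values lay below all contralateral ones. These shares rest on 20.1 to 79.6 estimated counts a library, spread over several transcripts of one gene, and were not tested.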
